A study of Xenopus laevis with 24 samples.

Results

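The gene models of elongation factor 1 alpha (EF1A) were followed through cultured explants of the *Xenopus laevis* gastrula and neurula. They were chosen by name, as the gene models called eef1a1, eef1a1o, eef1a2 or 42sp50 once a final .L or .S is taken off, and their levels and shares in all 12 groups were already known when this choice was made. 4 of the 31694 deposited gene models met the rule, namely eef1a1.L (gene3404), eef1a1o.S (gene14867), eef1a1o.L (gene15250) and 42sp50.L (gene16313), and 4 of 4 passed the filter on low counts. Since the members were chosen with their levels known, the levels are given as a description with no test. RefSeq uses 7 names of this kind for the species, and the other 3, eef1a1.S, eef1a2.L and eef1a2.S, matched no gene model by name. They are not analysed under those names, and whether gene3404 stands for any of these copies could not be settled.

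EF1A binds aminoacyl-tRNA in its GTP form and delivers it to the ribosome, and its exchange factor, the eEF1B complex, then recharges it with GTP. *Xenopus* uses several EF1A genes in turn: eef1a1 encodes the somatic form, which is switched on in the embryo after the midblastula transition, and eef1a1o encodes a form made in oocytes and early embryos. 42sp50 encodes thesaurin a, an EF1A relative that previtellogenic oocytes pack with tRNA, 5S rRNA and the protein 42sp43 into a storage particle. Because eef1a1 is expressed so highly, it has long served as a loading control in *Xenopus* RT-PCR. *X. laevis* is an allotetraploid, and L and S mark the homeologous copies of a gene.

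RNA was sequenced from 2 libraries in each of 12 groups, all from embryos kept at 16 °C until explants were cut. The dorsal marginal zone (DMZ, the organizer region, whose "Keller" explants extend in culture) was cut at stage 10.5, giving 50 explants, of which 5 or 6 were dissolved in TRIzol at each of 10 stages between 11 and 18, as read from intact embryos of the same age. The ventral marginal zone (VMZ, 5 explants cut at stage 10.5) and the animal cap (prospective ectoderm, 20 caps cut at stage 8) were taken at stage 11 only. A cap thus differs from a marginal zone explant in its cutting stage and in the number of pieces pooled as well as in its tissue, and these cannot be told apart. Nothing says that replicates 1 and 2 came from separate clutches, so the p-values below measure the spread between these libraries.

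Total counts were 7375650 in DMZ stage 11 replicate 2, 14570725 in DMZ stage 17 replicate 1, and between 21871182 and 39827863 in the other 22 libraries. The tissue labels were set against lists of markers. Summed over 14 models of dorsal genes such as chrd and gsc, the level was 1089 and 1758 CPM (counts relative to the TMM-scaled library size) in DMZ, 205 and 157 CPM in VMZ, and 37.4 and 83.3 CPM in caps at stage 11. Over 12 models of mesodermal genes it was 1472 and 1519 CPM in DMZ, 2173 and 1076 CPM in VMZ, and 41.5 and 66.1 CPM in caps. Over 22 models of epidermal ectoderm genes it was 1838 and 1065 CPM in DMZ, 3005 and 2899 CPM in VMZ, and 6886 and 5712 CPM in caps. Dorsal genes were thus highest in DMZ, mesodermal genes low in caps and ectodermal genes highest in caps. The list of ventral genes, 15 models, did not single out VMZ: it summed to 496 and 348 CPM in DMZ, 1227 and 739 CPM in VMZ, and 1472 and 1414 CPM in caps. The 13 models of endodermal genes summed to 893 and 887 CPM in DMZ, 389 and 111 CPM in VMZ, and 239.6 and 138 CPM in caps. That list was not uniform, with a median log2 difference of -1.65 for DMZ over VMZ and 1.33 for DMZ over caps. Its models above 1 CPM numbered 6 and 12 in DMZ, 12 and 11 in VMZ, and 8 and 9 in caps. In explants of mixed tissue, fewer cells of a type and less RNA per cell cannot be told apart.

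The somatic gene eef1a1.L held more counts than any other gene model in each of the 20 DMZ libraries and stood at its lowest in VMZ and caps. In DMZ explants, replicates 1 and 2 had 6974 and 4459 CPM at stage 11, 9866 and 5887 at stage 11.5, 9666 and 6964 at stage 12, 10248 and 8148 at stage 12.5, and 10755 and 9512 at stage 13. They had 11623 and 10064 CPM at stage 14, 13011 and 9481 at stage 15, 12522 and 11489 at stage 16, 11983 and 11527 at stage 17, and 11248 and 10086 at stage 18. Both series were lowest at stage 11 and peaked late, at stage 15 in replicate 1 and at stage 17 in replicate 2, and both stood a little below that peak at stage 18. The largest single step up came between stages 11 and 11.5 in both series, by 0.50 and 0.40 on the log2 scale.

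eef1a1.L in DMZ averaged 10667 ± 822 CPM at stage 18 and 5717 ± 1778 CPM at stage 11 (SD, n = 2 each). The fitted difference was 0.90 ± 0.32 on the log2 scale (SE), or 1.87-fold, and it was 0.69 in replicate 1 and 1.18 in replicate 2. It was 0.61 without replicate 2 of stage 11 and 1.26 without replicate 1 of stage 11. Both libraries of stage 18 stood above both of stage 11. Replicate 1 was the higher of the pair in 12 of 12 groups, by a median of 0.39 on the log2 scale.

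At stage 11, eef1a1.L had 6974 and 4459 CPM in DMZ, 3966 and 2015 CPM in VMZ, and 3745 and 2432 CPM in caps. Both DMZ libraries stood above all 4 libraries of the other tissues, while VMZ and caps overlapped. The difference was 0.93 ± 0.32 (log2, SE) for DMZ over VMZ, 0.89 ± 0.32 for DMZ over caps and -0.05 ± 0.31 for VMZ over caps, where the replicates gave 0.08 and -0.27. The DMZ libraries are shared by the first 2 of these differences and by the difference between stages, where they are the lower side. In VMZ and caps other gene models held more counts: its rank by count was 5 and 10 in the VMZ libraries and 6 and 13 in the cap libraries.

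**Figure D1:**
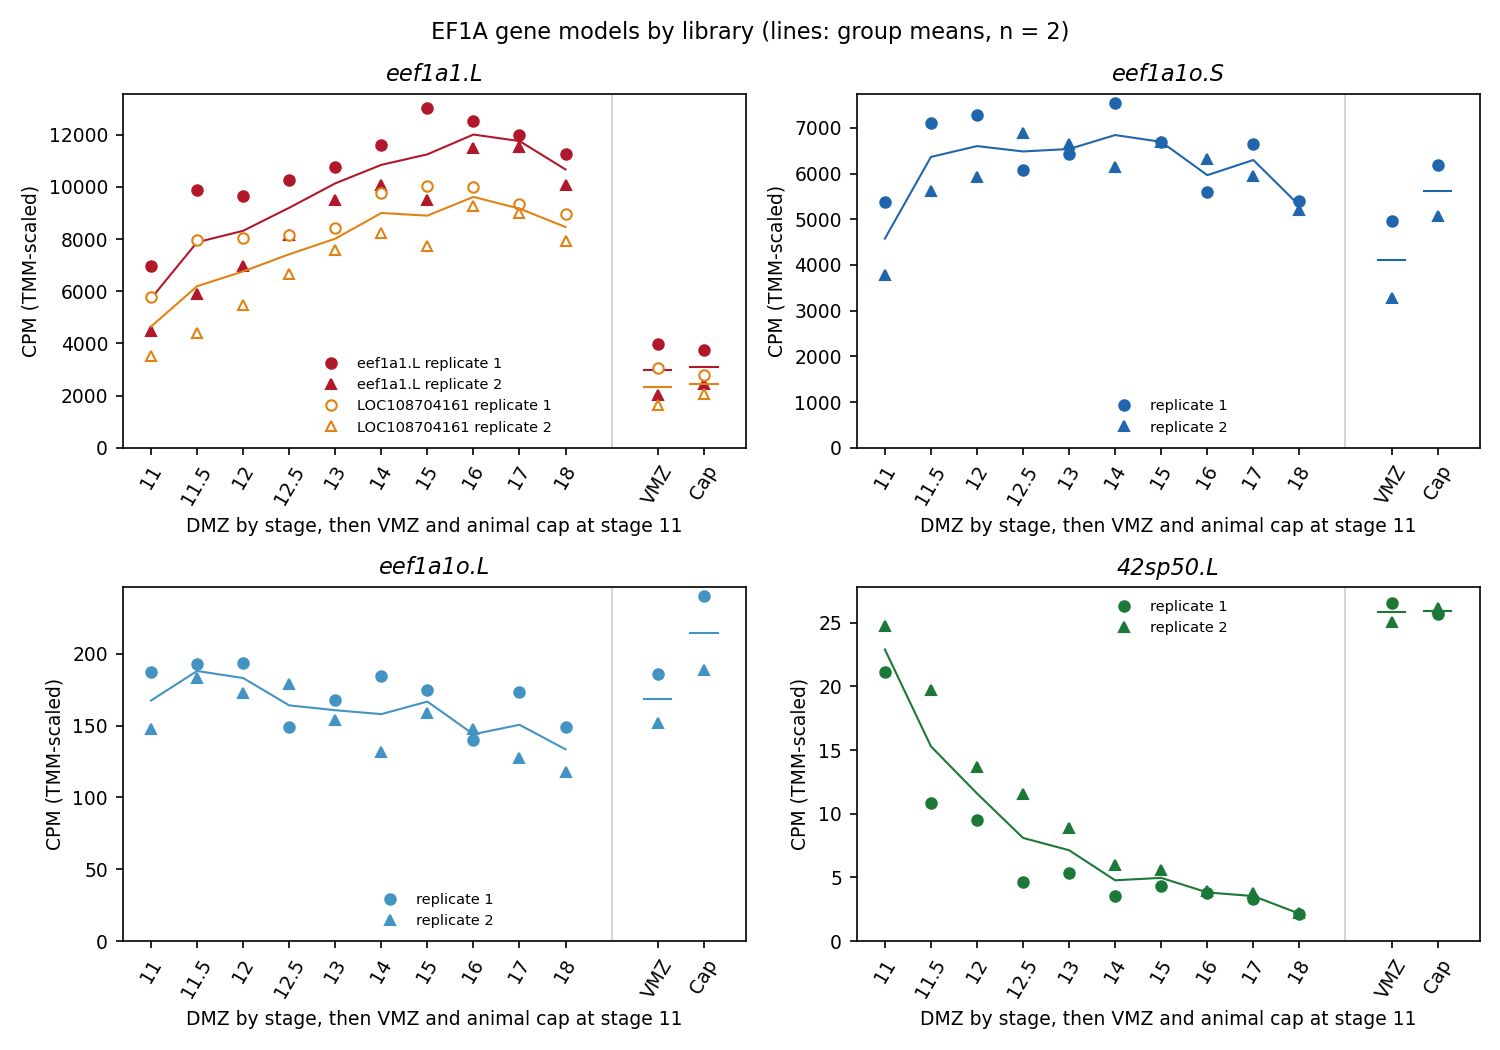
TMM-scaled CPM of each EF1A gene model in every library, over the 10 DMZ stages and then in VMZ and animal caps at stage 11; circles are replicate 1, triangles replicate 2, lines group means, and each panel has its own axis from 0. Group means of eef1a1.L are highest at DMZ stages 15 to 17 and lowest in VMZ and caps. Replicate 2 had 9481 CPM at stage 15, below its 10064 CPM at stage 14. 42sp50.L stands at 2.1 and 2.22 CPM at DMZ stage 18, against 21.1 and 24.7 CPM at stage 11. Open symbols show LOC108704161, which follows eef1a1.L.

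A further gene model moved with eef1a1.L in every library and could not be separated from it. LOC108704161 (gene11840) carries a number in its name that RefSeq now gives the symbol eef1a1.L, while the deposited table calls gene3404 eef1a1.L, and which of the RefSeq copies gene3404 stands for could not be settled from the names. It is no member by the rule and was picked out after its values were seen. Its count was 0.744 to 0.851 times that of eef1a1.L in the 24 libraries, and the Pearson correlation of the log2 levels was 0.998 over those libraries, which share their depth and any reads that match both models.

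LOC108704161 had 8976 and 7942 CPM in DMZ at stage 18, against 5763 and 3520 CPM at stage 11. VMZ had 3051 and 1642 CPM and caps had 2788 and 2069 CPM. It ranked second by count at stages 16, 17 and 18 in all 6 libraries. Adding its counts to those of eef1a1.L left the log2 differences at 0.88 for stage 18 over 11, 0.96 for DMZ over VMZ and 0.91 for DMZ over caps. Summed, the pair had 20224 and 18028 CPM at stage 18, against 12737 and 7979 CPM at stage 11.

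The form of oocytes and early embryos, eef1a1o, was counted nearly wholly on its S copy, whose level covered a narrower range than that of eef1a1.L. In DMZ, eef1a1o.S had 5378 and 3774 CPM at stage 11, 7104 and 5627 at stage 11.5, 7275 and 5930 at stage 12, 6082 and 6889 at stage 12.5, and 6431 and 6646 at stage 13. It had 7540 and 6148 CPM at stage 14, 6689 and 6701 at stage 15, 5603 and 6329 at stage 16, 6643 and 5952 at stage 17, and 5396 and 5202 at stage 18. Between stages 11.5 and 17 the course kept no single direction, at 5603 to 7540 CPM in replicate 1 and 5627 to 6889 CPM in replicate 2. The lowest value was at stage 11 in both replicates, though in replicate 1 stage 18 was nearly as low (5396 against 5378 CPM). The range within DMZ was 1.40-fold in replicate 1 and 1.83-fold in replicate 2.

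eef1a1o.S averaged 5299 CPM in DMZ at stage 18 and 4576 CPM at stage 11, a difference of 0.21 ± 0.20 (log2, SE). The replicates did not give the same size: 0.0048 in replicate 1 and 0.46 in replicate 2. Without replicate 2 of stage 11 the difference changed sign to -0.02. At stage 11 it had 5378 and 3774 CPM in DMZ, 4955 and 3271 CPM in VMZ, and 6180 and 5073 CPM in caps. All 3 tissues overlapped except that both caps stood above both VMZ libraries. The differences were 0.15 ± 0.20 for DMZ over VMZ, -0.30 ± 0.20 for DMZ over caps and -0.45 ± 0.20 for VMZ over caps. In replicates 1 and 2 they were 0.12 and 0.21, -0.20 and -0.43, and -0.32 and -0.63, so each kept its sign. The first was 0.16 with the replicate block. It changed sign to -0.14 without VMZ replicate 2 and to -0.12 without DMZ replicate 1, where a library is left without its same-numbered partner. In caps eef1a1o.S held the most counts of any gene model in both libraries, and it ranked second by count in VMZ.

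The L copy, eef1a1o.L, was counted at 118 to 240 CPM over all 24 libraries. It had 149 and 118 CPM in DMZ at stage 18, against 187 and 148 CPM at stage 11, a difference of -0.33 ± 0.20 (log2, SE) that was -0.33 in both replicates. The groups overlapped, since replicate 1 at stage 18 stood above replicate 2 at stage 11. At stage 11 VMZ had 186 and 152 CPM and caps had 240 and 189 CPM, so the caps stood above the other tissues. The difference was -0.01 ± 0.20 for DMZ over VMZ, which changed sign to 0.08 with upper quartile scaling. It was -0.36 ± 0.20 for DMZ over caps and -0.35 ± 0.20 for VMZ over caps.

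The L copy made up a smaller part of the eef1a1o counts at the later DMZ stages than at stage 11. Its share of the L and S counts together was 3.36% and 3.76% in DMZ at stage 11, 2.39% and 2.09% at stage 14, and 2.69% and 2.21% at stage 18. It was 3.61% and 4.44% in VMZ and 3.74% and 3.59% in caps at stage 11. Both DMZ libraries of stage 18 lay below all 6 libraries of stage 11. kallisto assigns reads that match both copies by estimation, and how far this share depends on that step was not tested. When L and S are counted as 1 gene, the difference of stage 18 over 11 is 0.25, set almost wholly by the S copy.

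42sp50.L, the tRNA-storing form of the oocyte, stood lower in DMZ at nearly every later stage. It had 21.1 and 24.7 CPM at stage 11, 10.8 and 19.7 at stage 11.5, 9.55 and 13.6 at stage 12, 4.67 and 11.5 at stage 12.5, and 5.38 and 8.90 at stage 13. It had 3.55 and 6.01 CPM at stage 14, 4.35 and 5.59 at stage 15, 3.75 and 3.91 at stage 16, 3.28 and 3.81 at stage 17, and 2.1 and 2.22 at stage 18. Replicate 2 was lower than at the stage before in 9 of 9 steps and replicate 1 in 7 of 9. In counts, the libraries of stage 18 held 72 and 81, against 622 and 193 at stage 11.

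The difference in 42sp50.L of DMZ stage 18 over stage 11 was -3.40 ± 0.42 (log2, SE), 10.6-fold lower at stage 18, and the replicates gave -3.33 and -3.48. No library of stage 18 came near one of stage 11. Among the tissues of stage 11 it hardly differed: 21.1 and 24.7 CPM in DMZ, 26.6 and 25.1 CPM in VMZ, and 25.6 and 26.1 CPM in caps. The differences were -0.18 ± 0.38 for DMZ over VMZ, -0.18 ± 0.38 for DMZ over caps and -0.0039 ± 0.38 for VMZ over caps, so DMZ was the lowest by less than the standard error. The last of these changed sign to 0.04 with unscaled library totals. In contrast with eef1a1.L, replicate 1 was the higher of the pair in only 1 of 12 groups. Replicate 2 was ahead most at stage 12.5, where replicate 1 stood 1.30 lower on the log2 scale.

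The balance between the members was read as each model's share of their summed counts, which is independent of scaling between libraries. Counts were not divided by transcript length, for which no source was at hand, so a share or a ratio of counts between genes is given only to follow it across groups. eef1a1.L took 67.0% and 65.5% of the members' counts in DMZ at stage 18, against 55.5% and 53.1% at stage 11, on average 66.2% and 54.3%, a difference of 11.9 percentage points. eef1a1o.S took 32.1% and 33.8% at stage 18, against 42.8% and 44.9% at stage 11, a difference of -10.9 points. The shares of the 2 stages did not overlap for either model, and the 95% Wilson interval of a share reached at most 0.38 points to either side, which covers counting error only.

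Between these ends, the share of eef1a1.L averaged 53.8% at stage 11.5, 54.8% at stage 12, 57.8% at stage 12.5, 60.1% at stage 13, 60.8% at stage 14, 61.7% at stage 15, 66.2% at stage 16 and 64.6% at stage 17. The SD of the 2 libraries was between 1.05 and 6.13 points. From 1 stage to the next, the share was higher in both replicates at stage 12.5 (62.2% and 53.5%) than at stage 12 (56.4% and 53.2%), and at stage 16 (68.5% and 63.9%) than at stage 15 (65.4% and 58.0%). At the other steps the replicates moved in opposite directions, except into stage 18, where replicate 1 was higher and replicate 2 stayed in place. At the step in level between stages 11 and 11.5, the share was higher in replicate 1 and lower in replicate 2. eef1a1.L had 57.5% and 50.2% at stage 11.5, against 55.5% and 53.1% at stage 11. At that step eef1a1o.S stood higher as well, by 0.40 and 0.58 on the log2 scale.

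The share of eef1a1.L at stage 11 separated the tissues: 55.5% and 53.1% in DMZ, 43.4% and 36.9% in VMZ, and 36.7% and 31.5% in caps. The order was DMZ, VMZ, caps, with no overlap, although VMZ replicate 2 lay only just above cap replicate 1. The difference was 14.1 points for DMZ over VMZ, 20.2 points for DMZ over caps and 6.03 points for VMZ over caps. With LOC108704161 in the sum but not added to eef1a1.L, the same differences were 7.27, 10.9 and 3.60 points. That of stage 18 over 11 was then 5.69 points for eef1a1.L and -8.89 points for eef1a1o.S. The direction was kept in each of these, while the larger sum lowers the share of eef1a1.L by itself. Added together, eef1a1.L and LOC108704161 took 78.5% and 77.2% of that sum in DMZ at stage 18, against 69.5% and 66.9% at stage 11. At stage 11 VMZ had 57.6% and 51.5% and caps had 50.3% and 46.0%, so the tissues kept their order without overlap.

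**Figure D2:**
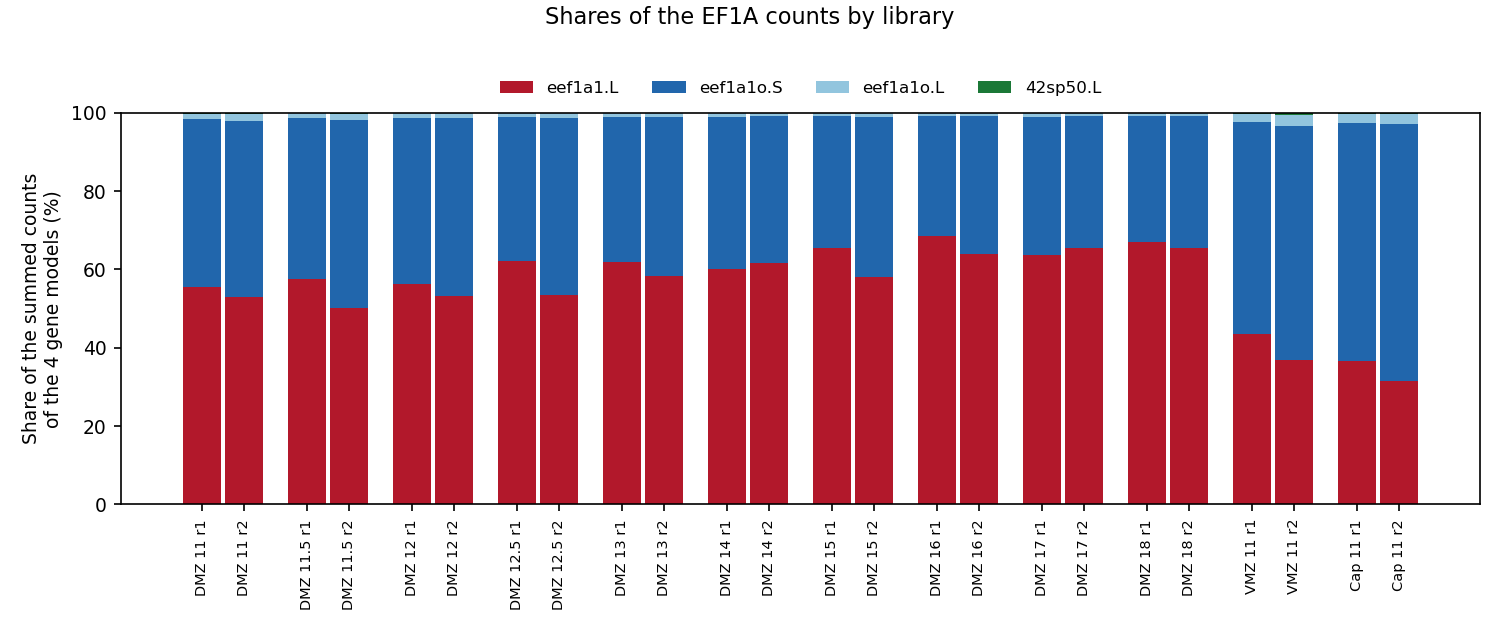
Share of the summed counts of the 4 EF1A gene models (%, stacked to 100) in each of the 24 libraries, r1 and r2 being the replicates. eef1a1.L takes 31.5% to 43.4% in VMZ and caps, 53.1% and 55.5% in DMZ at stage 11, and 65.5% and 67.0% in DMZ at stage 18; 42sp50.L is at most 0.459% and barely visible.

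The 4 members together took 1.76% and 1.64% of all counts in DMZ at stage 18, against 1.23% and 0.890% at stage 11. VMZ had 0.959% and 0.609%, and caps 1.04% and 0.836%. The highest value, 1.93%, was that of DMZ replicate 1 at stage 15. With LOC108704161 added, DMZ had 2.70% and 2.48% at stage 18, against 1.79% and 1.26% at stage 11. The count of eef1a1.L was 2.08 and 1.94 times that of eef1a1o.S at stage 18, against 1.30 and 1.18 times at stage 11, 0.80 and 0.616 times in VMZ and 0.606 and 0.479 times in caps. The ratio was higher in all 20 DMZ libraries than in the 4 libraries of VMZ and caps. It leaves out LOC108704161, so it does not tell which form held more counts. With that model in the sum, eef1a1.L and LOC108704161 took 57.6% and 51.5% in VMZ, against 42.2% and 48.2% for both eef1a1o copies. In caps they took 50.3% and 46.0%, against 49.5% and 53.8%.

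Across libraries the somatic and the oocyte particle forms ran opposite to each other. The Pearson correlation of log2(CPM + 1) between eef1a1.L and 42sp50.L was -0.858 over 24 libraries and -0.874 over the 20 DMZ libraries. Between eef1a1.L and eef1a1o.S it was 0.710 and 0.608 over the same sets. These are descriptions over libraries that share their stages, replicate numbers and scaling. Between the L and S copies of eef1a1o it was 0.276 and 0.461.

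The gene models of most similar pattern were taken as the 5 with a gene symbol and a mean of at least 5 CPM that correlated best with each member over the 24 libraries. For eef1a1.L they were cirbp.S (a cold-inducible RNA-binding protein, r = 0.991), slc35a2.L (a UDP-galactose transporter, 0.988), ncl.S (nucleolin, a nucleolar protein of rRNA synthesis, 0.986), crabp2.L (a retinoic acid binding protein, 0.986) and gmps.L (GMP synthetase, 0.985). cirbp.S had 5365 and 4872 CPM in DMZ at stage 18, against 3990 and 2747 CPM at stage 11, 2488 and 1754 CPM in VMZ and 2627 and 2151 CPM in caps. crabp2.L had a wider range, with 660 and 549 CPM at stage 18, against 243 and 99.8 CPM at stage 11, 105 and 22.2 CPM in VMZ and 54.3 and 17.0 CPM in caps. cirbp.S was higher in both DMZ libraries than in the other tissues, while crabp2.L in DMZ replicate 2 lay just below VMZ replicate 1. That these genes resemble eef1a1.L follows from how they were chosen.

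For 42sp50.L the list was myo5a.S (a myosin V motor, r = 0.989), apba2.L (an adaptor protein, 0.989), ccnd2.S (cyclin D2, 0.988), mtmr14.S (a phosphoinositide phosphatase, 0.986) and wdr45b.S (an autophagy protein, 0.986). myo5a.S had 12.3 and 17.3 CPM in DMZ at stage 18, against 110 and 111 CPM at stage 11. VMZ had 122 and 127 CPM and caps had 115 and 118 CPM of it. For eef1a1o.S the closest was arl1.L (a Golgi GTPase, 0.911), followed by sppl3.L, alg2.L, ppp1cb.L and txnrd3.L, and for eef1a1o.L it was ctbs.S (chitobiase, 0.886), followed by stat3.2.L, cers2.L, ckap4.S and prr13-like.S. These names depended on the libraries used: over the 20 DMZ libraries alone, none of the 5 stayed for eef1a1.L or eef1a1o.S, 1 stayed for eef1a1o.L and 2 for 42sp50.L.

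The genes that work with EF1A were set beside it, counted from an edgeR quasi-likelihood test over all 31349 gene models past the filter, with Benjamini-Hochberg adjustment and a call at an adjusted p under 0.05. Between DMZ stages 18 and 11 the test called 40.4% of all gene models, 20.9% higher and 19.6% lower, so a share of calls near these is no result about a list. The median log2 difference of all models was 0.02. The tests that follow concern only genes outside the 4 members. Each list is given by its counts and its median.

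Of the eEF1B complex, which exchanges GDP for GTP on EF1A, and its associated proteins, 2 of 8 gene models rose and 0 fell, with a median log2 difference of 0.56. 3 of the 8, vars.L, vars.S and eef1e1.L, are a synthetase and an auxiliary protein rather than exchange subunits, count in the list of synthetases as well, and gave no call. The first was eef1d.L (gene5829), which encodes the delta subunit. It had 62.0 and 55.6 CPM in DMZ at stage 18, against 9.26 and 21.5 CPM at stage 11, a difference of 1.96 ± 0.38 (log2, SE; adjusted p = 0.00083). The second was eef1g.L, the gamma subunit, with 375 and 353 CPM at stage 18, against 183 and 229 CPM at stage 11 (0.82 ± 0.19, adjusted p = 0.00259). Both genes had no overlap between the stages.

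The S copy of the gamma subunit did not follow its L copy. eef1g.S had 110 and 114 CPM at stage 18, against 135 and 188 CPM at stage 11, a difference of -0.53 ± 0.31 that missed the threshold (adjusted p = 0.193), and with replicate number as a block it was -0.49 (adjusted p = 0.0142). With both copies summed, eef1g differed by 0.43 (adjusted p = 0.142), so the call on eef1g.L holds for the L copy as counted and was lost for the pair. The unblocked test also missed eef1b2.L, the beta subunit, with 0.53 ± 0.26 (adjusted p = 0.12; 0.00441 with the block), and the second eef1d.L model (gene43198), with 1.31 ± 0.60 (adjusted p = 0.0936; 0.00207 with the block). In that blocked fit 4 of 8 rose and 1 fell. No model of the list had an unadjusted p under 0.05 in the downward direction without the block, and DESeq2 also called 2 higher and 0 lower.

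Elongation factor 2, the GTPase that moves the ribosome on after each EF1A delivery, was higher at the later stage in both of its main copies. eef2.1.L had 1976 and 1673 CPM in DMZ at stage 18, against 806 and 523 CPM at stage 11 (1.46 ± 0.30, adjusted p = 0.00141). eef2.1.S had 1453 and 1249 CPM at stage 18, against 673 and 394 CPM at stage 11 (1.34 ± 0.33, adjusted p = 0.00457), and without replicate 2 of stage 11 this call was lost (1.01, adjusted p = 0.0646). Both fitted differences are above the 0.90 of eef1a1.L, which carries no test. The third model, eef2.2.L, had at most 29 counts in a library of these stages and gave no call (0.48 ± 0.60, adjusted p = 0.556).

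The list of other elongation and hypusine factors, which holds eef2, eif5a, the enzymes that modify them, the methyltransferases of EF1A and tpt1 (a protein that binds EF1A and eEF1B in mammals), had 8 of 20 models higher and 2 lower, with a median of 0.63. eef2k.L, the kinase that inhibits elongation factor 2, averaged 16.7 ± 3.73 CPM at stage 18 and 2.43 ± 0.55 CPM at stage 11 (SD, n = 2 each; 2.81 ± 0.34, adjusted p = 1.7e-05). mettl13.S, an EF1A methyltransferase in mammals, averaged 9.24 CPM at stage 18 and 1.93 CPM at stage 11 (2.26 ± 0.41, adjusted p = 0.000495). dph7.L, of diphthamide synthesis on elongation factor 2, averaged 12.0 CPM at stage 18 and 4.72 CPM at stage 11 (1.33 ± 0.26, adjusted p = 0.000984).

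The 2 models that fell were modifying enzymes. dhps.S, the deoxyhypusine synthase that starts the modification of eIF5A, averaged 4.67 CPM at stage 18 and 15.5 CPM at stage 11 (-1.73 ± 0.32, adjusted p = 0.000559). dph5.S, also of diphthamide synthesis, averaged 7.25 CPM at stage 18 and 17.1 CPM at stage 11 (-1.23 ± 0.40, adjusted p = 0.0214), a call lost without replicate 2 of stage 11 (-0.93) or without either library of stage 18 (-1.22 and -1.25). Without replicate 2 of stage 11, the library of lowest depth, the list had 5 models higher and 1 lower, and without replicate 2 of stage 18 it had 8 higher and 1 lower.

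The list of EF1A-like GTPases is mixed and moved in no common direction as a whole. It also holds GTPases nearer to elongation factor 2, among them gfm1, efl1 and eftud2, and an exchange factor. 2 of 18 models rose, 4 fell, and the median was 0.09. Those that rose were gfm1.L (gene27471) and eftud2.L, while efl1.L, eefsec.S, hbs1l.L and gtpbp1.S fell. efl1.L, a GTPase of late 60S ribosome maturation, averaged 15.1 ± 1.96 CPM at stage 18 and 66.8 ± 6.58 CPM at stage 11 (-2.14 ± 0.29, adjusted p = 4.44e-05). eefsec.S, the elongation factor for selenocysteine, averaged 13.2 CPM at stage 18 and 26.2 CPM at stage 11 (-0.99 ± 0.16, adjusted p = 0.000236). gspt1, the release factor eRF3, named after its values were seen, gave no call in either copy (L 0.17 ± 0.20, adjusted p = 0.536; S -0.07 ± 0.12, adjusted p = 0.66).

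The other calls of the GTPase list were lost when a library was left out, with smaller groups in the fit. hbs1l.L, of ribosome rescue (-0.99, adjusted p = 0.0135), and gtpbp1.S (-1.27, adjusted p = 0.0181) lost their calls without replicate 2 of stage 11 (-0.83 and -0.91) or without either library of stage 18, where hbs1l.L was -0.94 and -1.03 and gtpbp1.S -1.21 and -1.33. The mitochondrial factor gfm1.L (gene27471; 1.52, adjusted p = 0.0235) lost its call without replicate 1 or 2 of stage 11 (1.69 and 1.39) or without replicate 1 of stage 18 (1.03). The spliceosomal eftud2.L (0.26, adjusted p = 0.0348) lost its call without any 1 of the 4 libraries, at 0.25 to 0.27, and with upper quartile scaling (0.21, adjusted p = 0.1). The list had 0 higher and 2 lower without replicate 2 of stage 11 or without replicate 1 of stage 18, where edgeR with all libraries had 3 higher at an unadjusted p under 0.05 and DESeq2 called 2 higher. Without replicate 2 of stage 18 it had 1 higher and 2 lower, and with the block 4 higher and 4 lower.

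**Figure D3:**
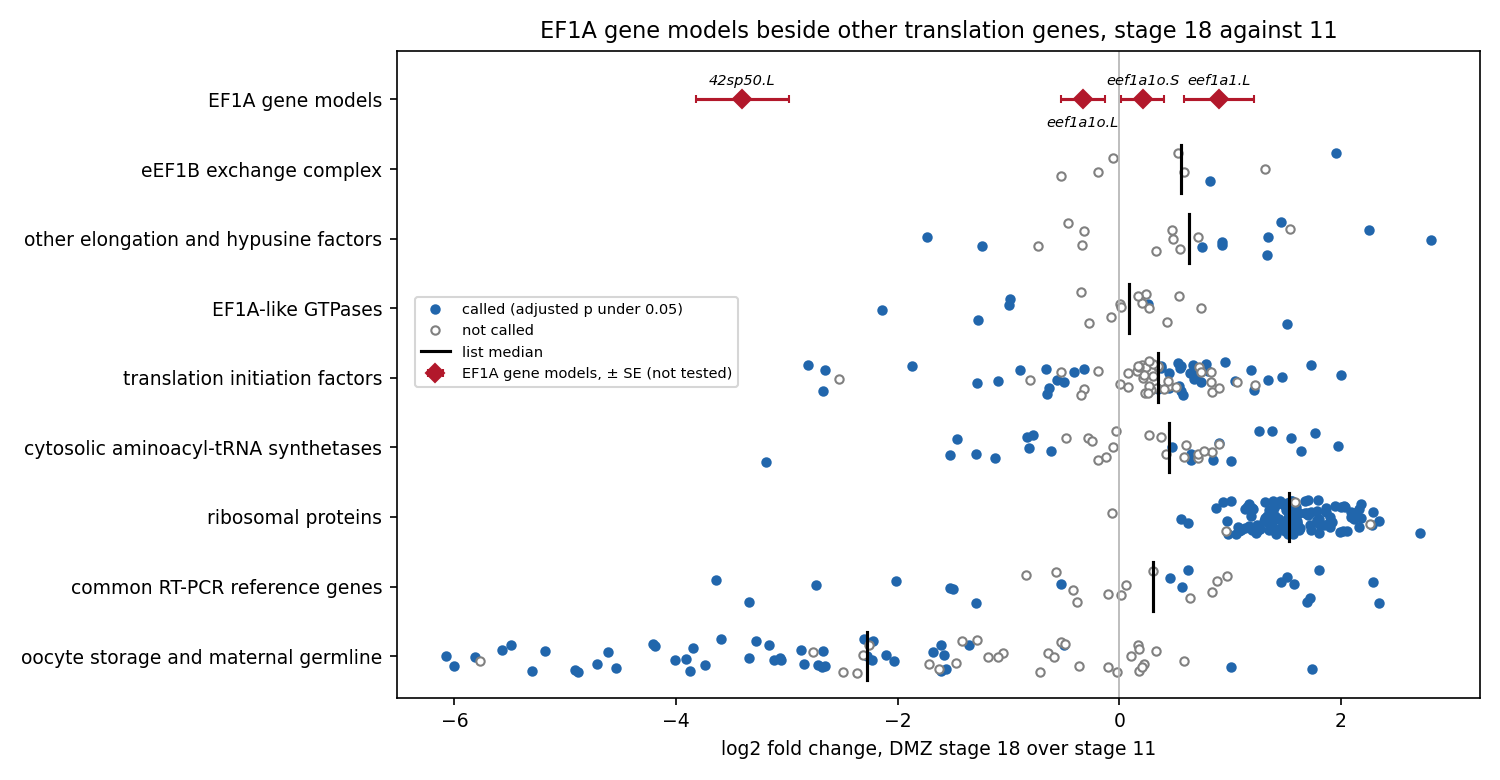
Fitted log2 fold change of DMZ stage 18 over stage 11 for the 4 EF1A gene models (diamonds with SE, not tested) and for each gene model of 8 lists, filled where called at an adjusted p under 0.05; points are jittered up and down and black bars are list medians. The EF1A models span 0.90 to -3.40, the ribosomal proteins centre on 1.53 and the oocyte list on -2.27.

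The list of translation initiation factors, matched by gene name, was split, with 27 of 79 models higher, 14 lower and a median of 0.35. eif3d.S, a subunit of eIF3, averaged 581 ± 21.5 CPM at stage 18 and 364 ± 47.0 CPM at stage 11 (0.67 ± 0.12, adjusted p = 0.000315). eif2b2.L, of the exchange factor for eIF2, averaged 27.0 CPM at stage 18 and 9.77 CPM at stage 11 (1.47 ± 0.19, adjusted p = 3.52e-05). Among those lower were both pabpc1l.L models, which encode an embryonic poly(A)-binding protein and stand in the oocyte list as well: gene13111 averaged 8.17 CPM at stage 18 and 51.6 CPM at stage 11 (-2.66 ± 0.27, adjusted p = 3.85e-06), and gene44111 averaged 2.27 CPM at stage 18 and 14.5 CPM at stage 11 (-2.67 ± 0.21, adjusted p = 6.56e-07). The count of higher models was 13 without replicate 2 of stage 11, 14 without replicate 1 of stage 18, and 45 with the replicate block.

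The cytosolic aminoacyl-tRNA synthetases, which load the tRNAs that EF1A carries, had 12 of 38 models higher, 9 lower and a median of 0.45. sars.L, for serine, averaged 46.9 ± 4.64 CPM at stage 18 and 17.9 ± 1.48 CPM at stage 11 (1.38 ± 0.17, adjusted p = 2.32e-05), and yars.L, for tyrosine, 30.0 ± 2.71 CPM at stage 18 and 7.55 ± 1.45 CPM at stage 11 (1.97 ± 0.30, adjusted p = 0.000126). Both homeologs for asparagine were lower, nars.L averaging 46.2 CPM at stage 18 and 101 CPM at stage 11 (-1.12 ± 0.19, adjusted p = 0.000298). nars.S averaged 10.2 CPM at stage 18 and 24.9 CPM at stage 11 (-1.29 ± 0.21, adjusted p = 0.000223). Without replicate 2 of stage 11 the list had 8 higher and 7 lower.

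Ribosomal proteins were nearly all higher: 116 of 120 models rose and 0 fell, with a median of 1.53. No model was lower at an unadjusted p under 0.05, and DESeq2 also called 116 higher and 0 lower. rps9.L averaged 141 ± 3.91 CPM at stage 18 and 38.2 ± 0.45 CPM at stage 11 (1.88 ± 0.15, adjusted p = 6.75e-07). 116 of the 120 had a larger log2 difference than eef1a1.L, and 119 a larger one than eef1a1o.S. Muscle and neuron genes were higher at stage 18 in the same libraries: 33 of 54 and 34 of 51 models rose, and their summed levels were 2155 and 2214 CPM (muscle) and 1150 and 1363 CPM (neurons) at stage 18, against 306 and 366 CPM and 320 and 232 CPM at stage 11. Neither list had a model called lower; 3 muscle models and 0 neuron models were lower at an unadjusted p under 0.05, and DESeq2 called 1 muscle model and 0 neuron models lower. The part that the changing cell types had in the EF1A levels was not tested.

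Most other oocyte genes were lower at stage 18. Of 77 models of oocyte storage and maternal germline genes, 45 fell and 2 rose, with a median of -2.27. 42sp43.L, the partner of thesaurin a in the storage particle, had 0.525 and 0.466 CPM in DMZ at stage 18, against 6.38 and 8.06 CPM at stage 11, a difference of -3.85 ± 0.45 (log2, SE; adjusted p = 1.51e-05). That is close in size to the -3.40 of 42sp50.L, and the difference between the genes was not tested.

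gtf3a.L encodes transcription factor IIIA, which binds stored 5S rRNA in oocytes. It had 6.97 and 4.58 CPM at stage 18, against 19.5 and 14.6 CPM at stage 11 (-1.57 ± 0.30, adjusted p = 0.000685). ybx2.S encodes an mRNA-masking Y-box protein of germ cells and had 10.9 and 10.2 CPM at stage 18, against 37.4 and 49.0 CPM at stage 11 (-2.03 ± 0.37, adjusted p = 0.000493). Its homeolog ybx2.L had 8.45 and 7.32 CPM at stage 18, against 11.8 and 21.0 CPM at stage 11, and just missed the threshold (-1.04 ± 0.41, adjusted p = 0.052; 0.0126 with the replicate block).

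Of the 77 models, 21 had a lower log2 difference than 42sp50.L. gdf9.L, an oocyte growth factor, averaged 3.95 ± 0.51 CPM at stage 18 and 73.1 ± 2.41 CPM at stage 11 (-4.21 ± 0.26, adjusted p = 1.71e-07). wee2.S, an oocyte kinase of cell cycle arrest, averaged 0.453 ± 0.020 CPM at stage 18 and 29.4 ± 8.53 CPM at stage 11 (-6.01 ± 0.46, adjusted p = 5.1e-07). The 2 that rose were trim36.L, a ubiquitin ligase of cortical rotation (1.74 ± 0.28, adjusted p = 0.000185), and rbm42.S, an RNA-binding protein (1.01 ± 0.31, adjusted p = 0.0152). The rbm42.S call was lost without replicate 1 of stage 11 or either library of stage 18. With L and S summed, the difference of the rbm42 pair was -0.41 (adjusted p = 0.01).

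**Figure D4:**
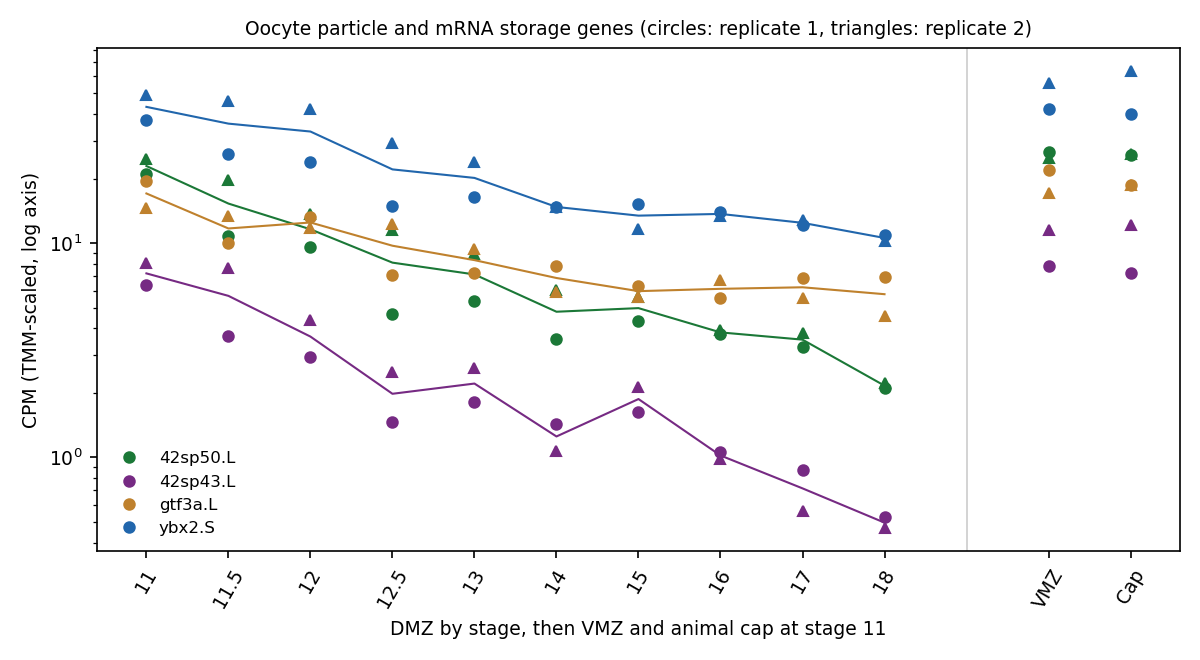
TMM-scaled CPM (log axis) of 42sp50.L, its particle partner 42sp43.L, gtf3a.L and ybx2.S in each library over the DMZ stages and in VMZ and animal caps at stage 11; circles are replicate 1, triangles replicate 2 and lines DMZ group means. All 4 stand lower in DMZ at stage 18 than in any tissue at stage 11, 42sp50.L at 2.1 and 2.22 CPM and 42sp43.L at 0.525 and 0.466 CPM.

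Between tissues at stage 11, few of these genes passed the test without the replicate block. DMZ against VMZ called 3.14% of all gene models, 2.24% higher and 0.906% lower, and 71.2% of the calls were higher in DMZ (82.2% with upper quartile scaling). With the replicate block 2714 models were called in place of 985. The lists were not counted with the block in any contrast between tissues, so a count of 0 does not show that tissues were alike. In that contrast, without the block, edgeR called 0 of 8 eEF1B models, 0 of 20 other elongation factors, 0 of 18 EF1A-like GTPases and 0 of 38 synthetases. At an unadjusted p under 0.05 there were 0, 2, 3 and 3, and DESeq2 called 0, 2, 2 and 0. Of the initiation factors 5 of 79 were higher in DMZ and 0 lower (19 higher and 3 lower at an unadjusted p under 0.05, 10 higher and 2 lower with DESeq2), with a list median of 0.21 where that of all models was -0.04. Models stand in this list by gene name, which does not show a role in initiation for eif4a3.L or eif4e2.L. The 5 called were eif3c.L, eif3f.S, both eif4a3.L models and eif4e2.L (gene41637), named after their values were seen.

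The largest of these by level was eif3c.L, with a mean of 243 ± 10.4 CPM in DMZ and 178 ± 5.75 CPM in VMZ (SD, n = 2 each; 0.45 ± 0.10, adjusted p = 0.0187). Of the oocyte genes 4 of 77 were lower in DMZ and 0 higher (20 lower and 1 higher at an unadjusted p under 0.05, 7 lower and 0 higher with DESeq2). These were cpeb1.L, cpeb1.S, ccnb5.L and h1foo.L, named after their values were seen. The first 3 rest on VMZ libraries that differ widely, the SD of the VMZ libraries being 12.9 CPM on a mean of 10.6 CPM for cpeb1.L. h1foo.L, an oocyte linker histone, averaged 7.63 ± 1.01 CPM in DMZ and 23.8 ± 3.89 CPM in VMZ (-1.64 ± 0.41, adjusted p = 0.041). With only the groups compared in the fit, edgeR called 0 models in this contrast (2510 had an unadjusted p under 0.05), so the calls on eif3c.L and h1foo.L were lost there. 42sp43.L gave no call (-0.42 ± 0.39, adjusted p = 0.638).

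DMZ against caps called 3.21% of all gene models, 2.49% higher and 0.718% lower. Of the translation lists, edgeR called only dph2.L of diphthamide synthesis, with 36.6 ± 10.1 CPM in DMZ and 19.6 ± 1.67 CPM in caps (0.91 ± 0.24, adjusted p = 0.0494), and it was named after its values were seen. It called 0 of 8 eEF1B models, 0 of 18 GTPases, 0 of 79 initiation factors and 0 of 38 synthetases, where 0, 2, 9 and 0 had an unadjusted p under 0.05 and DESeq2 called 0, 0, 1 and 0. The oocyte list gave 1 call, wnt11b.L, a maternal Wnt ligand that is also expressed in the marginal zone, at 278 ± 49.7 CPM in DMZ and 12 ± 1.2 CPM in caps (4.49 ± 0.38, adjusted p = 3.32e-06).

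VMZ against caps called 1.03% of all gene models, 0.721% higher and 0.313% lower, with 69.8% of the calls higher in VMZ (54.9% with upper quartile scaling). edgeR called 0 of 8 eEF1B models, 0 of 20 other elongation factors, 0 of 18 GTPases, 0 of 79 initiation factors and 0 of 38 synthetases. At an unadjusted p under 0.05 there were 0, 1, 1, 7 and 0, and DESeq2 called 0, 0, 0, 2 and 0. The single call of the oocyte list was again wnt11b.L, at 226 ± 91.3 CPM in VMZ and 12 ± 1.2 CPM in caps (4.19 ± 0.38, adjusted p = 2.66e-05).

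How even each member is over the 24 libraries bears on its use as a control in RT-PCR, and was read as the SD of log2(CPM + 1). The SD was 0.23 for eef1a1o.L, 0.28 for eef1a1o.S, 0.76 for eef1a1.L and 1.08 for 42sp50.L. Set beside 28 models of other common reference genes with a mean of at least 5 CPM, 4 had a smaller SD than eef1a1o.L, 9 a smaller one than eef1a1o.S, 25 than eef1a1.L and 28 than 42sp50.L. Within the 20 DMZ libraries alone, 13 of the 28 had a smaller SD than eef1a1.L, which was 0.39 there, and 5 a smaller one than eef1a1o.S.

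The smallest SDs among the reference genes, named here after their values were seen, were those of ywhaz.L, a 14-3-3 protein, at 0.10, and slc35b1.L, a sugar nucleotide transporter, at 0.13. odc1.L, ornithine decarboxylase, had 0.27, close to eef1a1o.S, while its homeolog odc1.S had 0.51. gapdh.S had 0.76, as eef1a1.L did, while its homeolog gapdh.L had 0.38. The group means of eef1a1.L spanned 4.01-fold, with the highest at DMZ stage 16 and the lowest in VMZ, and those of eef1a1o.S 1.66-fold, with the highest at DMZ stage 14 and the lowest in VMZ. Between stages 18 and 11 the reference list itself had 11 of 31 models higher and 8 lower, with a median of 0.31. It had 6 higher without replicate 2 of stage 11 (and 5 lower), without replicate 1 of stage 18 or with L and S summed, and 7 higher without replicate 2 of stage 18. Counting error adds to the SD of the scarcer genes, so the order is not one of biological variation alone. The SD also takes in any offset between replicate numbers. Replicate 1 was the higher in 12 of 12 groups for eef1a1.L, 8 for eef1a1o.S, 10 for eef1a1o.L and 1 for 42sp50.L. How much this adds to each SD was not tested.

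**Figure D5:**
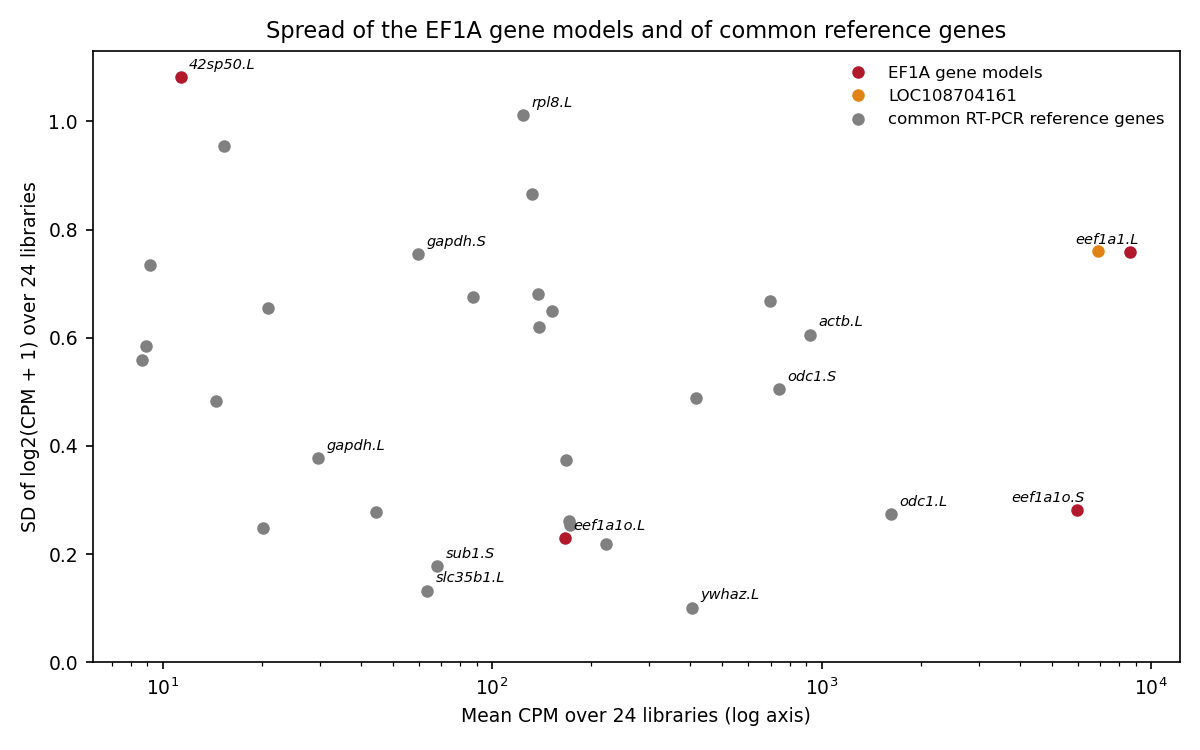
SD of log2(CPM + 1) over the 24 libraries against mean CPM (log axis) for the 4 EF1A gene models, LOC108704161 and other common RT-PCR reference genes with a mean of at least 5 CPM. eef1a1.L and LOC108704161 sit at 0.76, eef1a1o.S and eef1a1o.L at 0.28 and 0.23, and ywhaz.L lowest at 0.10.

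In the authors' deposited table of changing genes, eef1a1.L is listed with an adjusted p of 1.03E-11 in cluster 4 and 42sp50.L with 1.33E-35 in cluster 2. The authors' deposited table does not mark either eef1a1o model as changing and gives them no adjusted p, so whether they were tested cannot be read from it. It marks 13913 of 31694 gene models as changing. The sources used here do not state which test gave that adjusted p.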

How the data were processed

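The authors deposited a table of whole-number counts, with a row for each gene model and a column for each of 24 libraries. Per the submitters' processing notes, Trim Galore, kallisto and DESeq2 were used, while their versions, order, genome build and strand handling are not stated in the sources used here. kallisto divides reads that match several transcripts by estimation, which bears on L and S copies and on eef1a1.L with LOC108704161. A second deposited table, with the authors' adjusted p-value and a cluster number per gene model, was only copied from. Names were matched to a RefSeq gene table, and no sequence or length was used.

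The counts were tested with edgeR 4.0.16, which runs on limma 3.58.1, under R 4.3.3. filterByExpr (minimum count 10, minimum total 15) kept 31349 of 31694 models. After TMM scaling, the robust quasi-likelihood fit took in all 24 libraries and gave each group its own coefficient (12 residual degrees of freedom, biological coefficient of variation 0.33), so the spread is shared over groups of 2. p-values are two-sided and Benjamini-Hochberg adjusted over all tested models. The SE is the absolute log2 difference over the square root of F. Shares have 95% Wilson intervals. The fit was also run on simulated counts drawn without an offset between replicate numbers, so that run says nothing about such an offset.

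The members and lists were chosen with earlier results of these data known, and eef2.1 and eef2.2 were added to their list by name after the files were seen. Genes named are the members, the copies of 42sp43, gtf3a, ybx2, eef1b2, eef1d, eef1g and eef2, up to 4 called models of smallest p per list and direction for stage 18 against 11 (only part of these are printed), and the 5 models most like each member. Any other gene is marked as picked with its values in view.

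Replicate numbers recur in all groups. In 66 of 66 pairs of groups, deviations from group means of same-numbered libraries correlated above 0.1 (lowest 0.24, median 0.41, highest 0.67), so the numbers pair the samples. This comes from the data, not the labels, and the main fit has no block for it. The alternatives were RLE, upper quartile and no scaling, library sizes without the members, other filters, DESeq2 1.42.0, the replicate block, fewer groups in the fit, L and S summed, and leaving out each library. Adding LOC108704161 was chosen after seeing the data. 1 gene that the naming rule picks is not reported here.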

Additional observations from a re-analysis of the deposited data

How the results depend on the processing

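Under the other scalings, the replicate block and the sums tried, the members' log2 differences mostly moved by less than their libraries' spread. That spread is the square root of the summed variances of the 2 groups. It includes any offset between replicate numbers and reached 0.83 for eef1a1.L in DMZ over VMZ, so it is a loose limit. Shares do not depend on scaling and were recomputed only with LOC108704161 in the sum or with 1 library left out. The moves beyond the spread were as follows. 42sp50.L in VMZ over caps was -0.11 with upper quartile scaling. At stage 18 over 11, eef1a1o with L and S summed was 0.25, where eef1a1o.L alone was -0.33. That sum is set almost wholly by the S copy. With LOC108704161 in the sum but not added to eef1a1.L, the share differences for stage 18 over 11 were 5.69 (eef1a1.L) and -8.89 (eef1a1o.S) points. For eef1a1.L they were then 7.27 points for DMZ over VMZ and 10.9 points for DMZ over caps. Leaving out 1 library moved eef1a1.L between 0.61 and 1.26 (stage 18 over 11), 0.50 and 1.51 (DMZ over VMZ), 0.53 and 1.23 (DMZ over caps) and -0.62 and 0.36 (VMZ over caps), and eef1a1o.S between -0.02 and 0.49 (stage 18 over 11) and -0.14 and 0.48 (DMZ over VMZ). Signs also turned for eef1a1o.L in DMZ over VMZ (-0.19 to 0.15) and 42sp50.L in VMZ over caps (-0.05 to 0.02). rbm42 with L and S summed was -0.41, where rbm42.S alone was 1.01. Counts of all models called at stage 11 depended on the fit. For DMZ against VMZ, DMZ against caps and VMZ against caps, they were 985, 1006 and 324. With the replicate block, in which the numbers pair the samples, they were 2714, 1692 and 867 (60.2%, 70.6% and 58.1% higher); DESeq2 called 2251, 1645 and 902. With only the groups compared in the fit, edgeR called 0, 193 and 0, where 2510, 2183 and 1600 had an unadjusted p under 0.05. Leaving out 1 library in turn gave 210 (without VMZ replicate 2) to 1434, with 379 without DMZ stage 11 replicate 1; 489 (without cap replicate 1) to 744, with 575 without cap replicate 2 and 656 without DMZ replicate 1; and 133 (without cap replicate 1) to 352, with 179 without cap replicate 2. For stage 18 against 11 the count was 12674, 15885 with the block, and 8890 to 10498 without 1 library. Where leaving out a library left a group with 1 sample, that sample was assumed to vary like the other groups. Leaving out a library also broke its pair by replicate number, so any offset between the numbers entered these differences. Each cause was not tested. Dividing counts by coding length was not run, as no lengths were at hand. Depth limits 42sp50.L most, with 49 counts in its smallest library.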
